A study of Mus musculus with 70 samples.

Results

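The genes described here encode the signalling layer of the fibroblast growth factor (FGF) system: the 4 FGF receptors (Fgfr1, Fgfr2, Fgfr3 and Fgfr4), 4 ligands that act in lung development (Fgf7, Fgf9, Fgf10 and Fgf18) and 2 secreted FGF-binding proteins (Fgfbp1 and Fgfbp3). These 10 genes were taken by symbol from the 50789 gene identifiers of a raw count table, and all 10 were found. Fgfbp1 was selected on its higher level in Cic-L-KO lung relative to WT lung, and the other 9 genes were taken with it by name. The ratios of Cic-L-KO to WT lung are therefore given without a test for all 10 genes, as is the Fgfbp1 ratio between the knockouts in lung. Between the knockouts in lung the other 9 genes were tested, with the same Cic-L-KO libraries. The polyadenylated RNA came from wild-type mice (WT) and from 2 knockouts of the repressor Capicua, 1 of its short isoform (Cic-S-KO) and 1 of its long isoform (Cic-L-KO). The tissues were lung from 6-day-old pups (P6) and cortex and cerebellum from adults of 12 weeks. The WT samples were littermates of both lines, pooled, and the labels do not give the line of each. Each of the 9 tissue and genotype groups held 8 samples, or 7 for Cic-S-KO cortex and Cic-S-KO cerebellum, 70 in all. No Cre driver or floxed allele is named in the labels.

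FGFs are secreted ligands that bind heparan sulfate chains on the cell surface and activate receptor tyrosine kinases, which signal through the adaptor FRS2 to the RAS and ERK pathway. Capicua is a repressor whose target genes are released when ERK signalling is active, and the ETS factor gene Etv4 is among its best-known targets. In the developing lung FGF10 from the mesenchyme drives branching through the epithelial form of FGFR2, FGF7 acts on the same receptor form, FGF9 comes from the mesothelium and epithelium, and FGF18 from the mesenchyme. FGFBP1 and FGFBP3 release FGFs from heparan sulfate and carry them to their receptors.

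All lung libraries were labelled batch 1 and all brain libraries batch 2, so tissue, age and batch cannot be told apart between lung and brain, and lung was not tested against brain. Total counts per library ranged from 17798655 to 35523037. Counts were per gene, so neither the loss of a Cic isoform nor the splice forms of the receptors could be read from them: total Cic stood at 139 CPM in WT lung, 172 in Cic-S-KO lung and 135 in Cic-L-KO lung. Lung markers summed to between 18793 and 27437 CPM in lung libraries and to at most 3.43 CPM in brain libraries. Cortex markers summed to between 358 and 486 CPM in cortex, and cerebellum markers to between 3602 and 5701 CPM in cerebellum. CPM here means counts per 1000000 reads after TMM scaling within a tissue. In these bulk samples, fewer cells of a type and less RNA per cell cannot be told apart.

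The promoters of the 2 binding protein genes are shown because Fgfbp1 and Fgfbp3 are of one family and stood apart in Cic-L-KO lung. Capicua is known to bind octamers spelled TGAATGAA, TGAATGGA, TCAATGAA and TCAATGGA. Windows of 300 bases, from 250 before to 50 after the RefSeq start (GRCm38.p6), were searched on both strands. At least 1 of the 4 octamers was found in 3.84% of all 32851 RefSeq windows. RefSeq windows were at hand for 9 of the 10 genes, and that of Fgfr1 was not used here. Of these 9 genes only Fgfbp3 held an octamer, TTCATTCA on the gene strand, which is TGAATGAA read on the other strand and begins 60 bases before the start. The Fgfbp1 window (chr5:43981750-43982049, minus strand) held no octamer, which says only that these letters are not in this window. It held the TATA motif TATAAA once on the gene strand, as 8.32% of all windows did. That motif began 3 bases after the RefSeq start, and the GENCODE M21 start lay 20 bases after the RefSeq start. Capitals mark TATAAA in Fgfbp1 and the octamer in Fgfbp3 (chr19:36919550-36919849, minus strand).
Fgfbp1: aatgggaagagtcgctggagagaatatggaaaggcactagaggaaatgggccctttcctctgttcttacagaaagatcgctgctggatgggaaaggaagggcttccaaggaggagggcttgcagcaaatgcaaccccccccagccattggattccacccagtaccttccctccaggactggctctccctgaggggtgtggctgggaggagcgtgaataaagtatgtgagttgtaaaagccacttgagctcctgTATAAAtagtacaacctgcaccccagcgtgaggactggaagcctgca
Fgfbp3: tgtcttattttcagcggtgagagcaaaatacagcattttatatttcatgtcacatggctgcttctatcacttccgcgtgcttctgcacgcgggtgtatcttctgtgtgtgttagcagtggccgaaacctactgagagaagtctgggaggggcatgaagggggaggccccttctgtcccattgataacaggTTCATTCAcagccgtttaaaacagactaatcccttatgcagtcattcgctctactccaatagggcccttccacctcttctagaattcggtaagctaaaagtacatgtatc

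Between genes, levels were compared per kilobase of exon, in WT samples. In WT lung Fgfr3 stood highest at 28.7 ± 1.64 CPM per kb (SD, n = 8), and its samples overlapped those of Fgfr4 at 25.8 ± 2.46. Fgf18 (22.8 ± 2.10) and Fgfr2 (19.1 ± 0.967) came next, each overlapping its neighbour above. Fgfr1 stood at 13.5 ± 1.70 CPM per kb, apart from Fgfr2 above it and from Fgf10 (8.87 ± 0.604) below it. Fgf7 (7.56 ± 1.13) and Fgfbp3 (7.02 ± 1.58) overlapped each other. Fgfbp1 came next to last, from 1.92 to 4.19 CPM per kb, and Fgf9 was lowest at 0.572 ± 0.0969, with no overlap between these genes. In brain Fgf9 stood among the receptors instead: it ranked 3 of 10 in WT cortex (5.77 ± 0.362) and in WT cerebellum (10.9 ± 0.985), overlapping Fgfr1 or Fgfr3 above it and Fgfr2 below it. Fgfr4, which is prominent in lung epithelium, was lowest of the 10 in both brain regions, at 0.0344 ± 0.0328 CPM per kb in WT cortex and 0.0568 ± 0.0308 in WT cerebellum.

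**Figure D1:**
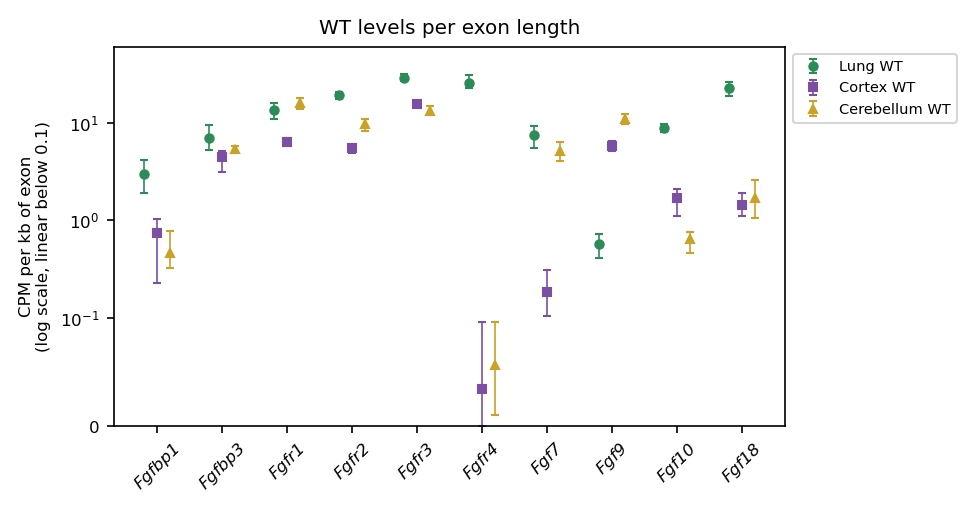
Levels of the 10 genes in WT lung, cortex and cerebellum, in CPM per kilobase of exon on an axis that is logarithmic above 0.1 and linear below it; points are means of 8 samples and bars run from the lowest to the highest sample. Fgfr4 and Fgf18 stood among the receptors and ligands of highest level in lung and low in brain, while Fgf9 was lowest in lung at 0.572 and reached 10.9 in cerebellum.

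Between the brain regions, 7 of the 9 genes that passed the low-count filter differed between WT cortex and WT cerebellum (edgeR), in a contrast where 73.5% of all genes tested did (35.4% higher and 38.2% lower in cortex). Fgf7, the keratinocyte growth factor, showed the largest difference of the 9: it ranged from 0.338 to 1.00 CPM in WT cortex (median 0.570) and from 13.3 to 20.6 CPM in WT cerebellum (median 16.8). Its log2 ratio, cortex to cerebellum, was -4.73 (SE 0.167, adjusted p = 2.99e-30, edgeR). Fgfr1 (-1.25), Fgf9 (-0.83) and Fgfr2 (-0.75) were also lower in cortex. Fgf10 was higher in cortex by 1.46 on the log2 scale, as were Fgfbp1 (0.73, adjusted p = 0.00823) and Fgfr3 (0.34) (edgeR). No WT cortex sample overlapped a WT cerebellum sample for Fgf7, Fgfr1, Fgfr2, Fgf9 or Fgf10. The share of all genes without such overlap was not counted, so this is a description only. Fgfbp3 (-0.18, SE 0.0937) and Fgf18 (-0.13, SE 0.185) missed the threshold of an adjusted p under 0.05.

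Each knockout was then compared with WT, and the 2 contrasts of a tissue share their WT samples. In Cic-S-KO lung 3 of the 10 genes were lower than WT, Fgf10, Fgfr4 and Fgfr1, and none of the 10 was higher (edgeR), where 15.7% of all genes differed, 9.99% higher and 5.73% lower. The Cic-L-KO lung contrast chose the genes, so the 10 are not counted there. In it 4.89% of all genes differed (2.62% higher, 2.28% lower). In Cic-L-KO cortex 5 of 9 differed, with Fgfr1, Fgfr2, Fgfr3 and Fgf18 higher and Fgf10 lower, in a contrast where 43.2% of all genes differed, 21.4% higher and 21.9% lower. In Cic-L-KO cerebellum 4 of 9 differed, with Fgfbp1, Fgfr1 and Fgfr2 higher and Fgf9 lower, where 21.5% of all genes differed, 10.9% higher and 10.6% lower. In Cic-S-KO cortex 0 of 9 passed (edgeR), 1 gene had an unadjusted p under 0.05 and DESeq2 called 0, where 6.53% of all genes differed, 2.83% higher and 3.7% lower. In Cic-S-KO cerebellum 0 of 9 passed (edgeR), 4 genes had an unadjusted p under 0.05 and DESeq2 called 0, where 8.23% of all genes differed, 4.34% higher and 3.89% lower. The median log2 ratio of the 9 genes was 0.235 in Cic-L-KO cortex, against 0.0114 over all genes tested, and lay between -0.102 and 0.058 in the other contrasts, where the medians of all genes lay between -0.001 and 0.0053.

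**Figure D2:**
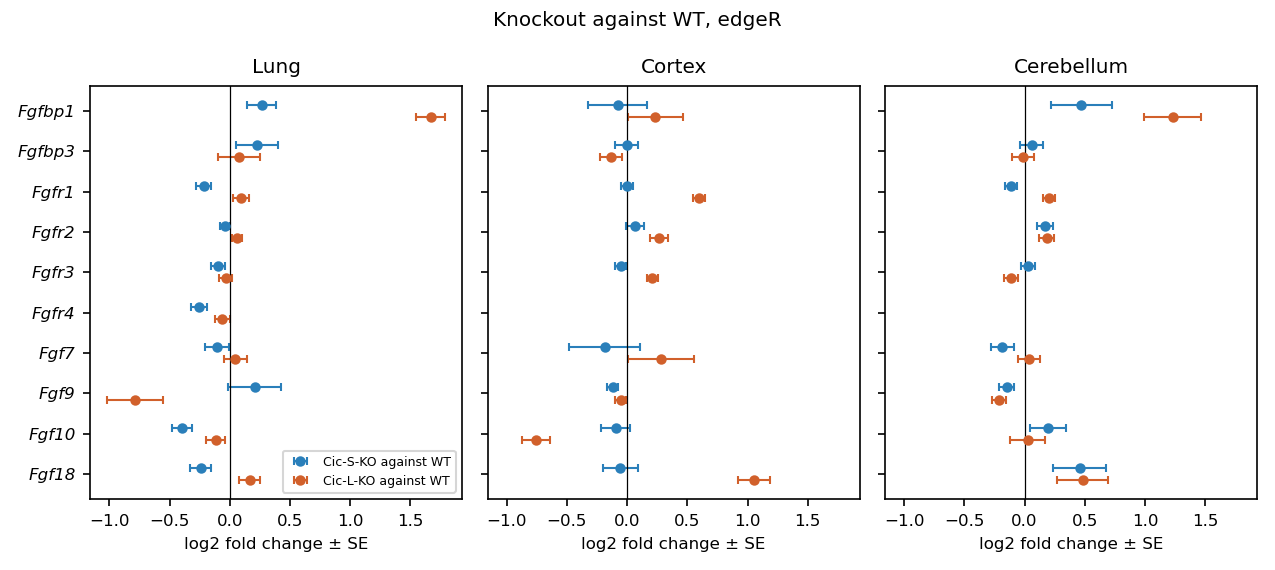
Log2 fold changes of the 10 genes against WT with their standard errors (edgeR), for Cic-S-KO and Cic-L-KO in each tissue; Fgfr4 did not pass the low-count filter in brain, and the Cic-L-KO lung values chose the set. Fgfbp1 lay at 1.67 in Cic-L-KO lung and 1.23 in Cic-L-KO cerebellum, and Fgf10 at -0.40 in Cic-S-KO lung and -0.76 in Cic-L-KO cortex.

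Fgfbp1 (ENSMUSG00000048373.8, chr5:43978858-43981779, minus strand, GRCm38) is known from epithelia, where its protein binds FGFs. In WT lung it ranged from 4.35 to 9.47 CPM (median 6.74), in the Cic-S-KO from 5.60 to 9.25 (median 8.60) and in Cic-L-KO lung from 17.3 to 27.1 (median 21.5). All 8 Cic-L-KO samples lay above all WT and all Cic-S-KO samples, while the WT and Cic-S-KO samples overlapped. The mean was 6.80 ± 1.46 CPM in WT (SD, n = 8) and 21.7 ± 3.09 in Cic-L-KO (n = 8), a log2 ratio of 1.67 (SE 0.121) that is given as a description. With any 1 WT or Cic-L-KO lung library left out, this ratio lay between 1.59 and 1.75, which is no support, since these libraries chose the gene. In Cic-S-KO lung Fgfbp1 stood at 8.19 ± 1.24 CPM (n = 8), and its log2 ratio to WT was 0.27 (SE 0.122), which missed the threshold (adjusted p = 0.134, edgeR).

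The brain libraries were not part of the lung values on which Fgfbp1 was selected, but earlier results of these data were known when it was chosen. In WT cerebellum it ranged from 0.732 to 1.77 CPM (median 0.865), in Cic-S-KO cerebellum from 0.698 to 2.87 (median 1.39) and in Cic-L-KO cerebellum from 1.79 to 3.09 (median 2.34). All 8 Cic-L-KO samples lay above all 8 WT samples, and the Cic-S-KO samples spanned both groups. The log2 ratio of Cic-S-KO to WT cerebellum was 0.47 (SE 0.251), which missed the threshold (adjusted p = 0.252, edgeR). Fgfbp1 was higher in Cic-L-KO than in WT cerebellum by 1.23 on the log2 scale (SE 0.236, adjusted p = 0.000493, edgeR). Against Cic-S-KO it was higher in Cic-L-KO by a smaller step (Cic-S-KO against Cic-L-KO, log2 ratio -0.76, SE 0.240, adjusted p = 0.0353, edgeR), in a contrast where 2 of 9 genes were lower in Cic-S-KO and 12.4% of all genes differed (6.06% higher, 6.38% lower). That call was lost without any 1 of Cic-S-KO replicates 1, 2, 3, 4 or 7 or of Cic-L-KO replicates 3, 7 or 8 (highest adjusted p 0.0843, edgeR), and with the title replicate number as a block (0.0503), but not with the library number of the sample descriptions as a block (0.0195), an alternative added after the data were seen. These values rest on 17 to 89 counts per cerebellum library. In cortex the groups overlapped, with a median of 1.79 CPM for WT, 1.61 for Cic-S-KO and 1.75 for Cic-L-KO. For Cic-L-KO cortex the log2 ratio of 0.23 (SE 0.232) missed the threshold (adjusted p = 0.433, edgeR).

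**Figure D3:**
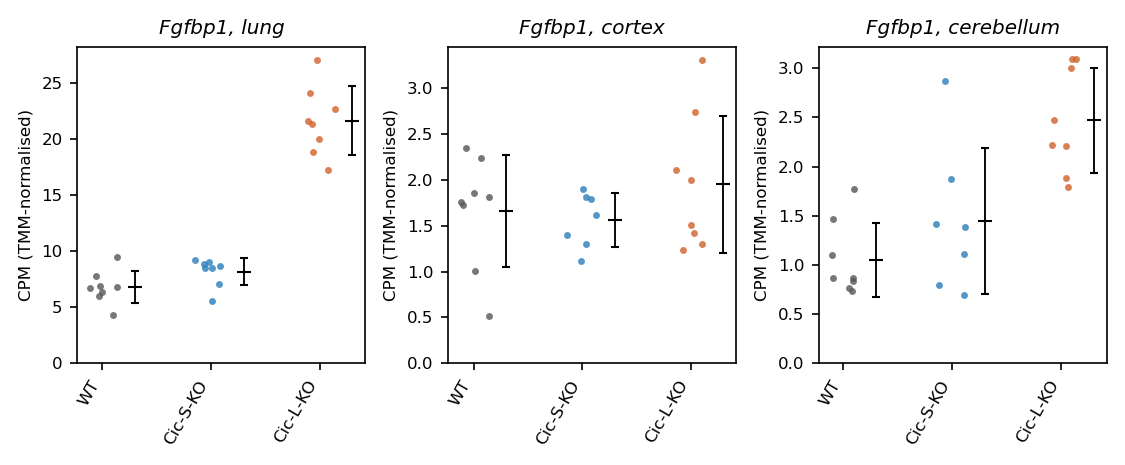
Fgfbp1 in CPM in every sample of lung, cortex and cerebellum by genotype, each panel with its own axis from 0; black lines are the mean and SD of a group. All 8 Cic-L-KO samples lay above all WT samples in lung (17.3 to 27.1 CPM) and in cerebellum (1.79 to 3.09 CPM), and the cortex groups overlapped.

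Markers of other cells were read beside these values. Over all genes tested, 2.62% were higher in Cic-L-KO lung and 9.99% in Cic-S-KO lung (edgeR). In cerebellum 10.9% were higher in Cic-L-KO and 4.34% in Cic-S-KO, and the marker counts are to be read beside these shares. In Cic-L-KO lung 1 of the 4 tested squamous and airway basal markers was higher, the keratin gene Krt14 (1.04, adjusted p = 0.0172, edgeR), out of a list of 12. Krt14 was higher in Cic-S-KO lung too (0.93, adjusted p = 0.0138, edgeR), where Fgfbp1 missed the threshold. The list summed to between 5.67 and 17.0 CPM in WT lung, 7.29 and 23.4 in Cic-S-KO and 7.15 and 22.5 in Cic-L-KO, and Krt6a, Dsg3, Lypd3 and Sprr3 had group means under 0.1 CPM in all 3 genotypes. Of 6 mesothelium markers 3 were higher in Cic-L-KO lung and 4 in Cic-S-KO lung (edgeR), with sums of 216 to 375 CPM in WT, 350 to 474 in Cic-S-KO and 357 to 487 in Cic-L-KO and no marker under 0.1 CPM. Of 10 alveolar epithelium markers 3 were higher in Cic-L-KO lung, Hopx (0.46), Aqp5 (0.25) and Ager (0.22), and the others missed the threshold (edgeR). The alveolar list summed to between 16390 and 20146 CPM in WT and 17193 and 19853 in Cic-L-KO. In Cic-L-KO cerebellum 5 of 7 meninges markers were higher and in Cic-S-KO cerebellum 3 of 7 (edgeR), with sums of 76.2 to 108 CPM in WT, 88.2 to 141 in Cic-S-KO and 109 to 134 in Cic-L-KO and no marker under 0.1 CPM. Choroid plexus markers varied widely between cerebellum libraries, with sums of 29.5 to 3091 CPM in WT, 139 to 4251 in Cic-S-KO and 461 to 3546 in Cic-L-KO. Of the squamous list, 1 of the 2 genes tested was higher in each knockout cerebellum, Krt15 (1.04 in Cic-L-KO, 1.02 in Cic-S-KO), with sums of 1.36 to 2.82 CPM in WT, 2.25 to 3.15 in Cic-S-KO and 2.17 to 5.09 in Cic-L-KO. In Cic-L-KO and WT cerebellum 10 of the 12 were under 0.1 CPM, Krt5 and Krt14 among them. The part of these cells in the Fgfbp1 values was not tested.

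The genes most like Fgfbp1 over the 24 lung samples, by Pearson's r of log2 CPM among 13089 genes, were Col2a1 (0.901), Ppm1l (0.887), Lmo7 (0.879), Nceh1 (0.873) and Slc17a2 (0.873). The lung mean of each of the 5 was highest in Cic-L-KO. A ranking by likeness to Fgfbp1, itself selected on its Cic-L-KO lung level, favours such genes, so nothing is read from this. Col2a1, the gene of cartilage collagen type II, had lung means of 5.89 CPM for WT, 16.8 for Cic-S-KO and 49.0 for Cic-L-KO, and Fgfbp1 overlapped between WT and Cic-S-KO. The chondrocyte markers, a list without Col2a1, summed to between 38.8 and 50.4 CPM in WT lung, 43.1 and 68.7 in Cic-S-KO and 40.8 and 58.6 in Cic-L-KO, with Matn1 under 0.1 CPM in all 3. Of the 6 chondrocyte markers tested 0 passed in Cic-L-KO lung (edgeR), where 4.89% of all genes differed. Of the 6, 1 had an unadjusted p under 0.05 and DESeq2 called 0. In Cic-S-KO lung, where 9.99% of all genes were higher, 1 of the 6 markers was, Chad (0.95, SE 0.249, adjusted p = 0.0125, edgeR). With genotype means removed, the most alike were Phf12 (0.794), Kazn (0.749), Dhx15 (0.746), Map3k3 (0.744) and St7l (0.735). None of these 5 was among the first 5. The 24 samples share their genotype groups and libraries, so these r are a description.

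Fgfbp3 (ENSMUSG00000047632.10, chr19:36917550-36919615, minus strand), the other binding protein, overlapped its WT samples in 6 of 6 knockout groups. Its lung means were 12.4 ± 2.80 CPM in WT (n = 8), 14.6 ± 5.53 in Cic-S-KO (n = 8) and 13.1 ± 2.01 in Cic-L-KO (n = 8). The Cic-S-KO lung samples were the widest, from 8.61 to 26.1 CPM (median 13.8), and 2 lay above and 2 below all WT samples. In cortex it ranged from 5.54 to 9.17 CPM in WT and from 6.09 to 8.94 in Cic-L-KO, and in cerebellum it stood at 9.50 ± 0.685 CPM in WT and 9.42 ± 1.61 in Cic-L-KO (n = 8 each). Outside Cic-L-KO lung its log2 ratios to WT ran from -0.13 in Cic-L-KO cortex (SE 0.0910, adjusted p = 0.240, edgeR) to 0.23 in Cic-S-KO lung (SE 0.175, adjusted p = 0.397, edgeR).

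Among the receptors, Fgfr1 (ENSMUSG00000031565.18, chr8:25513654-25575718, plus strand), which is broadly expressed in mesenchyme and neural tissue, differed from WT in 3 of the 5 contrasts tested. In WT cortex it ranged from 57.4 to 69.1 CPM (median 63.1), in Cic-S-KO cortex from 57.5 to 66.6 (median 64.3) and in Cic-L-KO cortex from 87.8 to 111 (median 92.2). All 8 Cic-L-KO samples lay above every WT and every Cic-S-KO sample. The log2 ratio of Cic-L-KO to WT cortex was 0.59 (SE 0.0471, adjusted p = 1.56e-11, edgeR), and that of Cic-S-KO was 0.0018 (SE 0.0491, adjusted p = 0.987). In cerebellum Fgfr1 ranged from 136 to 178 CPM in WT (median 163), 135 to 157 in Cic-S-KO (median 151) and 165 to 200 in Cic-L-KO (median 185). There 6 of 8 Cic-L-KO samples lay above all WT samples, and all 8 lay above all 7 Cic-S-KO samples. The Cic-L-KO ratio to WT was 0.20 (SE 0.0482, adjusted p = 0.00333, edgeR), and Cic-S-KO stood below Cic-L-KO (-0.31, SE 0.0501, adjusted p = 9.71e-05).

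In lung Fgfr1 ranged from 108 to 157 CPM in WT (median 135), 97.3 to 126 in Cic-S-KO (median 115) and 128 to 158 in Cic-L-KO (median 142). Cic-S-KO overlapped WT and lay wholly below Cic-L-KO. The step from WT to Cic-S-KO was downward (-0.22, SE 0.0654, adjusted p = 0.0237, edgeR), a call that ended without WT replicate 2 (0.0533) or WT replicate 8 (0.0516). Against Cic-L-KO the step was -0.31 (SE 0.0655, adjusted p = 0.00235, edgeR). In that contrast of the 2 knockouts, 1 of the 9 genes other than Fgfbp1 was higher in Cic-S-KO and 4 were lower, where 12.2% of all genes differed (7.31% higher, 4.85% lower). Exons of the antisense gene Gm16159 cover 1.66% of the Fgfr1 exon bases, and whether counting used strand is not given in the sources used here.

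Fgfr2 (ENSMUSG00000030849.18, chr7:130162451-133123350, minus strand), the receptor of FGF7 and FGF10 in its epithelial form, overlapped between the lung genotypes, and its Cic-S-KO lung ratio to WT of -0.041 (SE 0.0443) missed the threshold (adjusted p = 0.565, edgeR). Its lung means were 197 ± 9.99 CPM in WT (n = 8), 192 ± 11.7 in Cic-S-KO (n = 8) and 206 ± 13.6 in Cic-L-KO (n = 8). In cortex it was higher in Cic-L-KO, at 67.8 ± 8.34 CPM (n = 8) against 56.5 ± 4.61 in WT (n = 8), and 6 of 8 Cic-L-KO samples lay above all WT samples. The log2 ratio was 0.26 (SE 0.0721, adjusted p = 0.00452, edgeR). In cerebellum the means were 101 ± 10.3 CPM in WT (n = 8), 113 ± 11.7 in Cic-S-KO (n = 7) and 114 ± 7.80 in Cic-L-KO (n = 8). The Cic-L-KO ratio of 0.19 (SE 0.0623) passed (adjusted p = 0.0333, edgeR) and the Cic-S-KO ratio of 0.17 (SE 0.0645) did not (0.0968). The first call ended without any 1 of WT replicates 5, 6 or 7 or of Cic-L-KO replicates 1, 3, 4 or 5 (highest adjusted p 0.0753), with the title replicate number as a block (0.0717), with no low-count filter (0.0863) and with GC offsets (0.0540). The first held with the library number as a block (0.0359), an alternative also added after the data were seen, and the second was gained without Cic-S-KO replicate 4 (0.0232). Between the knockouts in cortex the Cic-S-KO level of Fgfr2 was lower, with a log2 ratio of -0.20 (SE 0.0745, adjusted p = 0.0404, edgeR), in a contrast where 1 of 9 genes was higher and 4 were lower and 33.9% of all genes differed (17.4% higher, 16.5% lower). That call ended without any 1 of Cic-S-KO replicates 4, 6 or 7 or of Cic-L-KO replicates 1, 2, 3, 5 or 6 (highest adjusted p 0.0866), and with the library number as a block (0.0825). Exons of Ctbp2 on the same strand cover 3.04% of the Fgfr2 exon bases. The GENCODE M21 model of Fgfr2 starts at 133123350, far upstream of the RefSeq start at 130266808, and takes in many other genes.

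Fgfr3 (ENSMUSG00000054252.18, chr5:33721674-33737068, plus strand), an astrocyte receptor in the adult brain and a receptor of FGF9 and FGF18, was higher in Cic-L-KO cortex. It ranged there from 104 to 122 CPM in WT (median 113), 105 to 113 in Cic-S-KO (median 106) and 112 to 147 in Cic-L-KO (median 128), and 6 of 8 Cic-L-KO samples lay above all WT samples. The log2 ratio of Cic-L-KO to WT was 0.21 (SE 0.0458, adjusted p = 0.000484, edgeR), and Cic-S-KO stood below Cic-L-KO (-0.26, adjusted p = 6.26e-05). In cerebellum it was 94.3 ± 6.38 CPM in WT (n = 8) and 87.2 ± 6.88 in Cic-L-KO (n = 8), a ratio of -0.11 (SE 0.0591, adjusted p = 0.184, edgeR). In lung its means were 205 ± 11.7 CPM for WT, 192 ± 12.8 for Cic-S-KO and 201 ± 20.6 for Cic-L-KO (n = 8 each). Exons of G630022F23Rik, a transcript model on the other strand, cover 13.94% of the Fgfr3 exon bases, the largest such share among the 10 genes.

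Fgfr4 (ENSMUSG00000005320.9, chr13:55152640-55168759, plus strand) was a lung gene in these data. In lung it ranged from 80.1 to 109 CPM in WT (median 90.0), 67.8 to 83.7 in Cic-S-KO (median 76.8) and 70.6 to 100 in Cic-L-KO (median 86.8). Of the 8 Cic-S-KO samples 6 lay below all WT samples. Cic-S-KO lung was lower than WT (-0.26, SE 0.0649, adjusted p = 0.00796, edgeR). It stood lower than Cic-L-KO too (-0.20, SE 0.0650, adjusted p = 0.0471), a call that ended without any 1 of Cic-S-KO replicates 1, 3, 5, 6, 7 or 8 or of Cic-L-KO replicates 1, 3, 4, 6 or 8 (highest adjusted p 0.107), and with the replicate number as a block (0.0601). The 46 brain libraries held 0 to 13 counts of Fgfr4 each, and it did not pass the low-count filter there.

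**Figure D4:**
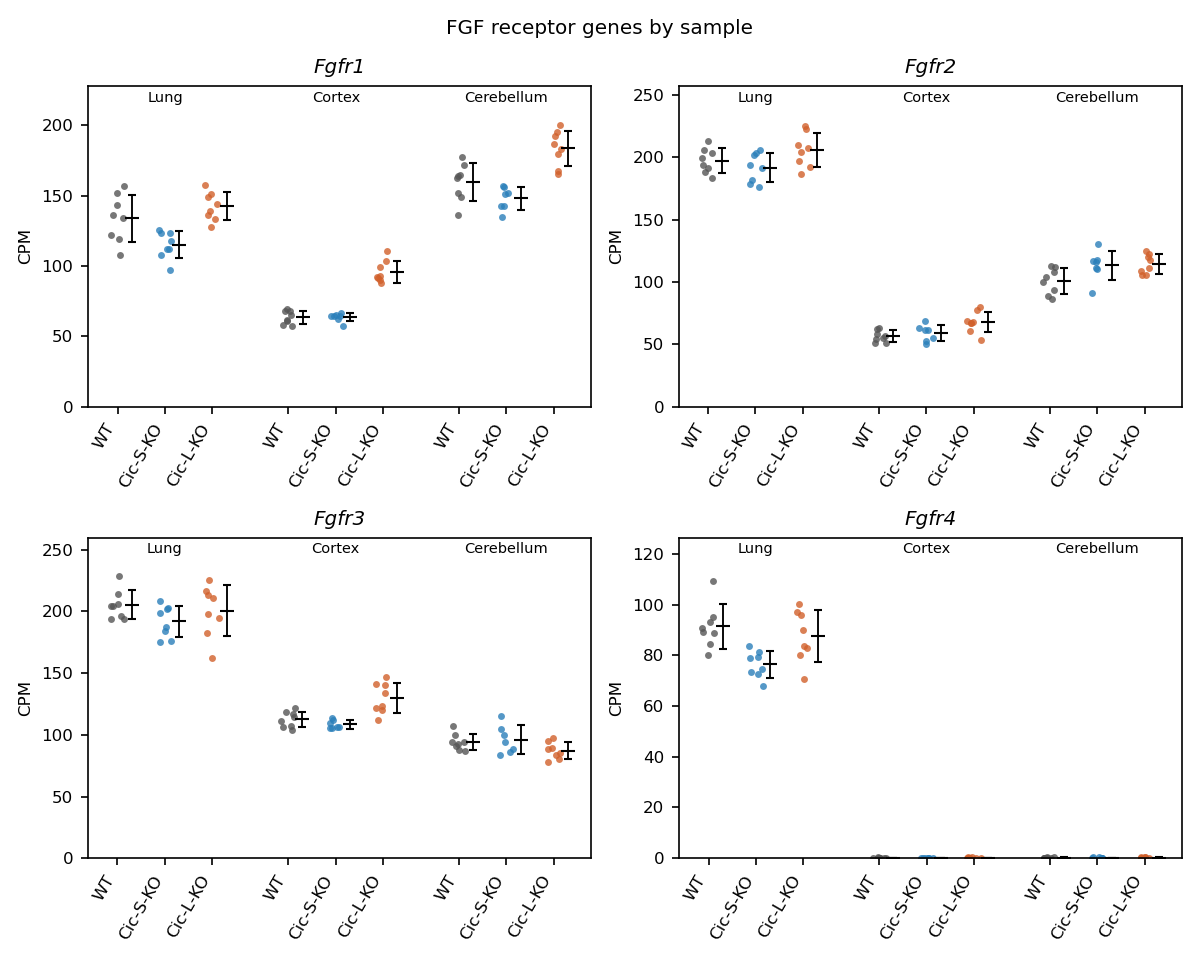
The 4 receptor genes in CPM in every sample, by tissue and genotype, on linear axes from 0; black lines are the mean and SD of a group. Fgfr1 in Cic-L-KO cortex (87.8 to 111 CPM) lay above all other cortex samples, and Fgfr4 was near 0 in all brain groups.

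In Cic-L-KO cortex 21.4% of all genes were higher and 21.9% lower, beside which the marker counts there are to be read. Of 8 astrocyte markers 3 were higher in Cic-L-KO cortex (edgeR), namely Aldh1l1, Gja1 and Fgfr3 itself. Their sums were 5000 to 6318 CPM in WT, 4415 to 6308 in Cic-S-KO and 5505 to 6962 in Cic-L-KO. Of 8 oligodendrocyte markers 1 was higher, Fgfr2 itself, and 1 lower, Opalin, with sums of 4768 to 6636 CPM in WT and 4649 to 6097 in Cic-L-KO. Of 6 choroid plexus markers 2 were higher, Clic6 and Kcne2, with sums of 22.4 to 607 CPM in WT, 10.5 to 637 in Cic-S-KO and 20.3 to 1347 in Cic-L-KO cortex. Of 7 meninges markers 2 were lower, with sums of 38.3 to 91.7 CPM in WT and 32.2 to 74.8 in Cic-L-KO, and of 5 cortex neuron markers 1 was higher and 3 lower, with sums of 399 to 486 CPM in WT and 358 to 440 in Cic-L-KO. No marker of these lists was under 0.1 CPM in cortex. Their part in the cortex values of the receptors and ligands was not tested.

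Among the ligands, Fgf10 (ENSMUSG00000021732.14, chr13:118669791-118792115, plus strand) was lower in Cic-S-KO lung at P6. It ranged from 37.5 to 44.7 CPM in WT lung (median 40.5), 26.2 to 35.7 in Cic-S-KO (median 31.3) and 31.7 to 51.3 in Cic-L-KO (median 34.9). All 8 Cic-S-KO samples lay below all 8 WT samples, and Cic-L-KO overlapped both. The log2 ratio of Cic-S-KO to WT was -0.40 (SE 0.0798, adjusted p = 0.00139, edgeR). The step against Cic-L-KO was -0.28 (SE 0.0801, adjusted p = 0.0213), and that call ended without Cic-S-KO replicate 6 (0.0513). In Cic-L-KO lung the ratio to WT was -0.12 (SE 0.0796), given as a description. Exons of the antisense gene Gm16263 cover 2.67% of the Fgf10 exon bases.

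In Cic-S-KO lung 9.99% of all genes were higher and 5.73% lower (edgeR). Of 10 lung fibroblast markers 2 were higher there (Inmt and Plin2) and 3 lower (Fgf10 itself, Meox2 and Npnt). The list summed to between 2422 and 2917 CPM in WT, 2316 and 2622 in Cic-S-KO and 2488 and 2898 in Cic-L-KO, with no marker under 0.1 CPM. Of 10 alveolar epithelium markers 1 was higher in Cic-S-KO lung, Hopx (0.15, adjusted p = 0.0465), with sums of 16390 to 20146 CPM in WT and 17567 to 23001 in Cic-S-KO and no marker under 0.1 CPM. The part of these cells in the Fgf10, Fgfr1 and Fgfr4 values was not tested.

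In cortex Fgf10 was lower in the other knockout. It ranged from 5.07 to 9.54 CPM in WT (median 7.82), 5.75 to 8.48 in Cic-S-KO (median 6.88) and 2.93 to 5.71 in Cic-L-KO (median 4.54), so that 5 of 8 Cic-L-KO samples lay below all WT samples and all 8 below all Cic-S-KO samples. The Cic-L-KO ratio to WT was -0.76 (SE 0.119, adjusted p = 6.04e-06, edgeR) and that of Cic-S-KO was -0.095 (SE 0.120, adjusted p = 0.691). In cerebellum the means were 2.97 ± 0.469 CPM in WT (n = 8), 3.41 ± 0.470 in Cic-S-KO (n = 7) and 3.03 ± 0.895 in Cic-L-KO (n = 8), and both ratios missed the threshold.

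Fgf18 (ENSMUSG00000057967.12, chr11:33117430-33147400, minus strand), a ligand of alveolar and skeletal growth, was higher in Cic-L-KO cortex. It ranged from 1.32 to 2.28 CPM in WT (median 1.66), 1.36 to 1.90 in Cic-S-KO (median 1.56) and 2.73 to 4.23 in Cic-L-KO (median 3.56). All 8 Cic-L-KO samples lay above all WT and all Cic-S-KO samples. The ratio to WT was 1.05 on the log2 scale (SE 0.135, adjusted p = 2.20e-07, edgeR). Both cerebellum ratios missed the threshold, that of Cic-L-KO at 0.48 with SE 0.212 (adjusted p = 0.108) and that of Cic-S-KO at 0.46 with SE 0.220 (adjusted p = 0.199). The first passed without WT replicate 1 (adjusted p = 0.0386, edgeR). In lung Fgf18 stood at 27.0 ± 2.49 CPM for WT, 22.8 ± 2.55 for Cic-S-KO and 30.3 ± 4.91 for Cic-L-KO (n = 8 each). The Cic-S-KO level was below that of Cic-L-KO (-0.41, SE 0.0866, adjusted p = 0.00231, edgeR). Against WT the Cic-S-KO ratio of -0.24 (SE 0.0864) missed the threshold (adjusted p = 0.0544, edgeR), and it passed in 6 of 8 other settings (0.0260 to 0.0523 over the 8). It also passed without WT replicate 7 (0.0210) or Cic-S-KO replicate 1 (0.0301) or 7 (0.0453).

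Fgf9 (ENSMUSG00000021974.15, chr14:58070547-58112720, plus strand), which signals from lung mesothelium and epithelium to the mesenchyme and from neurons in the brain, was scarce in lung. It ranged there from 1.90 to 3.33 CPM in WT (median 2.68), 1.17 to 4.11 in Cic-S-KO (median 3.405) and 0.702 to 2.46 in Cic-L-KO (median 1.57), at 15 to 140 counts per library. Of the Cic-S-KO samples 6 of 8 lay above all Cic-L-KO samples, and the ratio between them was 1.00 on the log2 scale (SE 0.230, adjusted p = 0.00451, edgeR). The same Cic-L-KO libraries stand in the untested ratio to WT, which was -0.79 (SE 0.231), with 7 of 8 samples below all WT samples. The mesothelium marker sums given above ran from 216 to 375 CPM in WT lung and overlapped those of both knockouts. The sums were 350 to 474 CPM for Cic-S-KO and 357 to 487 for Cic-L-KO. Their median was 310 CPM for WT, 407 for Cic-S-KO and 438 for Cic-L-KO. Lrrn4, Msln and Upk1b were higher in Cic-L-KO lung, where 2.62% of all genes were (edgeR). Lrrn4, Msln, Upk3b and Wt1 were higher in Cic-S-KO lung, where 9.99% of all genes were. The other mesothelium markers missed the threshold. The part of the mesothelium in the Fgf9 values was not tested. In cerebellum Fgf9 ranged from 44.8 to 57.9 CPM in WT (median 50.1), 41.3 to 50.8 in Cic-S-KO (median 44.4) and 37.2 to 49.0 in Cic-L-KO (median 44.2). Cic-L-KO was lower than WT (-0.21, SE 0.0573, adjusted p = 0.00794, edgeR), a call that ended after removal of GC-dependent offsets (-0.13, adjusted p = 0.119). The Cic-S-KO ratio of -0.15 (SE 0.0595) missed the threshold (0.114). Of 6 cerebellum markers 1 was lower in Cic-L-KO, Gabra6 (-0.38, adjusted p = 0.00620), and 1 higher, Pvalb (0.17, adjusted p = 0.0195, edgeR). In Cic-S-KO 3 were lower, Gabra6, Cbln3 and Cbln1, and 1 higher, Pvalb. Over all genes, 10.6% were lower and 10.9% higher in Cic-L-KO cerebellum, and 3.89% lower and 4.34% higher in Cic-S-KO cerebellum. The cerebellum marker list summed to between 4728 and 5701 CPM in WT, 3602 and 5014 in Cic-S-KO and 4031 and 5232 in Cic-L-KO. No marker of it was under 0.1 CPM, and its part in the Fgf9 values was not tested. Neither cortex ratio passed (edgeR): Cic-S-KO stood at -0.12 with SE 0.0478 (adjusted p = 0.118), and Cic-L-KO at -0.052 with SE 0.0461 (adjusted p = 0.379).

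Fgf7 (ENSMUSG00000027208.14, chr2:126034658-126091185, plus strand), which shares the epithelial FGFR2 form with Fgf10, missed the threshold in 5 of 5 knockout contrasts tested against WT. Its lung means were 24.5 ± 3.68 CPM for WT, 22.8 ± 2.19 for Cic-S-KO and 25.4 ± 4.61 for Cic-L-KO (n = 8 each). Its cerebellum means were 16.8 ± 2.11 CPM in WT (n = 8), 14.8 ± 1.71 in Cic-S-KO (n = 7) and 17.3 ± 3.09 in Cic-L-KO (n = 8). In cortex it rested on 3 to 25 counts per library, and the Cic-L-KO ratio of 0.28 had a standard error of 0.276.

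**Figure D5:**
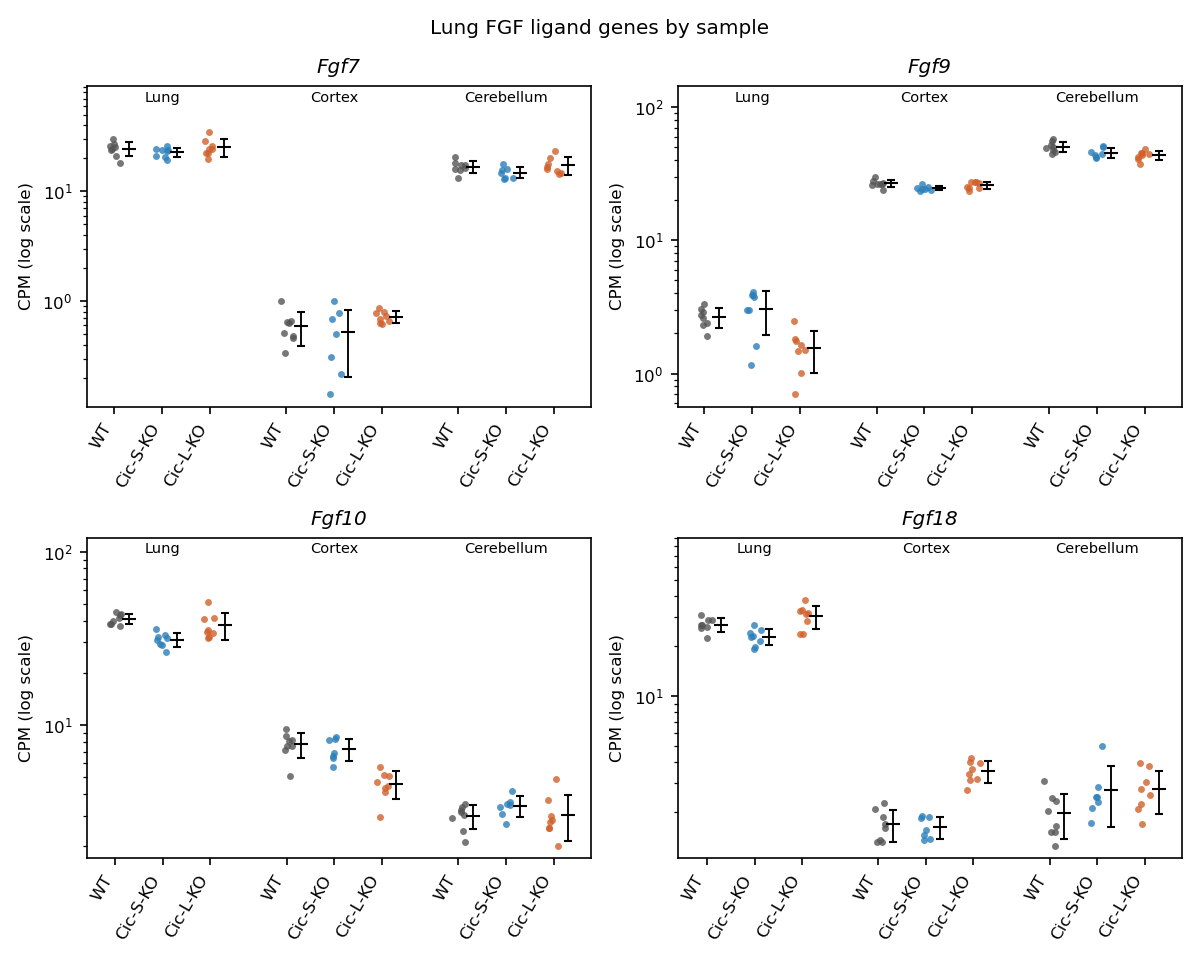
The 4 ligand genes in CPM (log axes) in every sample, by tissue and genotype; black lines are the mean and SD of a group. Fgf10 in Cic-S-KO lung (26.2 to 35.7 CPM) lay below all WT lung samples, and Fgf18 in Cic-L-KO cortex (2.73 to 4.23 CPM) lay above the other cortex samples.

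Whether a knockout effect differed between cortex and cerebellum was tested with an interaction contrast over the 46 brain samples. The labels do not say whether a cortex and a cerebellum sample came from the same animal, and the fit treated all 46 as separate. For Cic-L-KO 4 of 9 genes differed, 2 in each direction, in a contrast where 23% of all genes did (11.5% in each direction). The effect on Fgfr1 was larger in cortex by 0.39 on the log2 scale (SE 0.0694, adjusted p = 2.88e-05, edgeR), and both effects were increases. The effect on Fgfr3 was higher in cortex by 0.32 (SE 0.0758, adjusted p = 0.00140). Fgf10 fell in cortex and had a ratio of 0.028 in cerebellum (SE 0.146, adjusted p = 0.918), a difference of -0.78 (SE 0.189, adjusted p = 0.00173). The Fgfbp1 increase was larger in cerebellum than the cortex ratio by 0.99 on the log2 scale (cortex minus cerebellum -0.99, SE 0.342, adjusted p = 0.0291), and that call ended without Cortex WT replicate 4 (0.0542), with a block for each genotype and replicate number (0.0676) and without the low-count filter (0.0570). Fgf18, which passed in Cic-L-KO cortex and not in cerebellum, was not shown to differ between them (0.57, SE 0.252, adjusted p = 0.0957, edgeR). For Cic-S-KO 0 of 9 differed (edgeR), 0 had an unadjusted p under 0.05 and DESeq2 called 0, where 4.5% of all genes differed (2.01% higher, 2.5% lower).

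The rest of the pathway was read from lists of ligands, co-receptors, heparan sulfate genes, adaptors and response genes. In Cic-L-KO cortex 15 of 22 tested heparan sulfate proteoglycans and their enzymes differed, 11 higher and 4 lower (median log2 ratio 0.0976, against 0.0114 over all genes). In this contrast 43.2% of all genes differed, 21.4% higher and 21.9% lower, beside which the counts of these lists are to be read. The sulfotransferase gene Hs6st2 (0.66, SE 0.0582) and Sulf2, which removes sulfate from the chains (0.45, SE 0.0475), were higher, and Glce, an epimerase of chain synthesis, was lower (-0.36, SE 0.0466). Of the 6 co-receptor genes 3 differed, with the decoy receptor gene Fgfrl1 higher (0.52) and Flrt2 (-0.32) and Flrt1 (-0.26) lower. Of 8 tested other ligands 5 differed, among them Fgf1 (0.25), Fgf22 (-0.69) and Fgf17 (-1.04), and of the 4 intracellular FGF homologous factors 2 were lower, with Fgf14 at -0.55. Of 10 receptor adaptors 4 differed, with Grb2 (0.19) and Plcg1 (0.21) higher and Frs2, the main FGF receptor docking protein gene, lower (-0.13). Of 11 response genes 5 were higher, among them Etv4 (1.09, adjusted p = 5.79e-12) and Spred3 (0.57), and 2 lower, among them Etv1 (-0.41) (edgeR).

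In Cic-L-KO cerebellum, where 21.5% of all genes differed, 6 of 21 heparan sulfate genes did, with the syndecan gene Sdc1 lower (-0.65, SE 0.0996) and Hspg2 (0.55) and Sdc2 (0.17) higher. All 4 FGF homologous factors differed, 2 in each direction, with Fgf13 (0.36) and Fgf11 (0.16) higher and Fgf14 lower (-0.34). Of the 6 co-receptor genes 4 differed, among them Fgfrl1 (0.25) higher and Flrt3 (-0.27) and Flrt1 (-0.19) lower. Of 5 tested other ligands Fgf5 was higher (0.61) and Fgf1 lower (-0.19). Of 10 adaptors 3 differed, Frs2 (-0.13), Sos2 (-0.14) and Gab1 (0.15), and of 11 response genes 2 differed, Etv4 (0.31) and Etv1 (-0.34) (edgeR).

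In Cic-S-KO lung, where 15.7% of all genes differed, 6 of 21 heparan sulfate genes did, 3 in each direction, with Sulf2 (0.38) and Sdc4 (0.26) higher and Sdc2 lower (-0.23). Of 10 adaptors 3 were lower, the RAS exchange factor genes Sos2 (-0.23) and Sos1 (-0.19) and the phospholipase gene Plcg1 (-0.13). Of 11 response genes Etv4 was higher (0.74, SE 0.0870, adjusted p = 1.26e-05), 1 of 2 tested other ligands was lower (Fgf1, -0.22) and 1 of 3 homologous factors was lower (Fgf12, -0.60) (edgeR). Of 4 tested co-receptor genes 0 passed (edgeR), 1 had an unadjusted p under 0.05 and DESeq2 called 0. In Cic-L-KO lung, where 4.89% of all genes differed, Etv4 (0.40), Hs2st1 (0.18) and Sdc1 (0.21) were the called genes of these lists.

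In Cic-S-KO cortex, where 6.53% of all genes differed, 3 of 22 heparan sulfate genes did, with Gpc3 (0.54) and Ndst2 (0.24) higher and Extl3 lower (-0.13), and 2 of 4 homologous factors were lower, Fgf12 (-0.16) and Fgf13 (-0.14) (edgeR). In Cic-S-KO cerebellum, where 8.23% of all genes differed, 3 of 21 heparan sulfate genes did, with Ndst1 higher (0.17) and Sdc1 (-0.46) and Hs3st1 (-0.23) lower. There Gab1 was higher (0.21), Fgf11 was higher (0.29) and Fgf14 lower (-0.45). Of the 11 response genes 0 passed in either brain region of Cic-S-KO (edgeR), 2 in cortex and 5 in cerebellum had an unadjusted p under 0.05, and DESeq2 called 1 and 3.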

How the data were processed

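The values are raw gene-level read counts, which the authors deposited in 1 table with a column for each of 70 samples. STAR 2.7 and GRCm38.p6 are named in the submitters' processing notes. The counting program, the annotation and the use of strand are not given in the sources used here. RNA from flash-frozen tissue was selected for polyadenylated transcripts, per the labels' protocols. Symbols were found for 50639 of 50789 identifiers (150 had none) in a reference list of gene names, matched without the version number. GENCODE M21 gave positions and exon lengths.

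Genotypes were compared within a tissue with edgeR 4.0.16 in R 4.3.3: filterByExpr (16695 genes in lung, 16974 in cortex, 16643 in cerebellum), TMM and a robust quasi-likelihood fit over 3 genotypes. A fit over the 46 brain samples (18032 genes) gave the interactions and WT cortex against WT cerebellum. A Benjamini-Hochberg adjusted p under 0.05 over all genes tested counted as a difference. Since the labels do not say that samples came from separate animals, p-values measure the spread between these samples. No pair of libraries in a group agreed within sampling noise (smallest chi-square per degree of freedom 4.17).

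The members and lists were chosen with earlier results of these data known. All 10 members were described in every group. From each pathway list at most 3 called genes per contrast were named, by smallest p, and for Fgfbp1 the 5 genes most correlated over the lung samples among genes whose log2 CPM (prior count 2) averaged 1 or more, with and without genotype means. Of 176 list genes 7 were not analysed here. Tests were first checked on simulated counts. Alternatives were RLE, DESeq2 1.42.0, no or a stricter filter, only the compared groups, a Y-linked covariate, GC offsets in 20 bins and the replicate block. The block used the title number, or the library number as an added alternative, and genotype and number in the brain fit. Each library of the groups in a contrast was also left out in turn.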

Additional observations from a re-analysis of the deposited data

Results flagged for a closer look

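Fgf18 in Cic-S-KO cerebellum replicate 6 stood at 5.05 CPM, with the nearest sample at 2.86 CPM and the lowest at 1.72 CPM, so that the gap made up 0.659 of the range of the group. Of 90 member and group sets 1 held such a sample, where chance gives about 4.5.

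The Cic-L-KO effect differed between cortex and cerebellum for 4 members by the interaction test (edgeR). As cortex minus cerebellum on the log2 scale, the difference was -0.993 for Fgfbp1 (adjusted p = 0.0291), 0.394 for Fgfr1 (adjusted p = 2.88e-05), 0.321 for Fgfr3 (adjusted p = 0.00140) and -0.785 for Fgf10 (adjusted p = 0.00173). The Fgfbp1 difference missed the threshold with a block for each genotype and replicate number (0.0676), without the low-count filter (0.0570) and without Cortex WT replicate 4 (0.0542).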

How the results depend on the processing

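The count of FGF genes passing the threshold stayed within 1.5 times its value in 99 of 102 fits with another setting, and no log2 ratio of a gene that passed changed its sign. Cic-L-KO lung against WT with GC offsets was an exception. That contrast, which the 102 fits include, chose the genes, so nothing is read from its counts or from how steady they were. The other exceptions were the 2 knockouts in cerebellum. There 1 rather than 2 passed with a mean of at least 50 counts, a filter that left Fgfbp1 untested. With the title replicate number as a block 1 of 9 passed. Leaving out 1 library gave 2 to 4 genes for Cic-S-KO lung against WT and 3 to 5 for the 2 knockouts in lung. In cerebellum it gave 0 to 1 for Cic-S-KO against WT and 1 to 2 for the 2 knockouts. The lowest count of the 2 knockouts in lung came without Cic-S-KO replicate 6, and the 1 in Cic-S-KO cerebellum without Cic-S-KO replicate 4.

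Beyond the calls named beside their results, Fgf18 in Cic-S-KO lung passed with RLE scaling (adjusted p = 0.0460, edgeR), DESeq2 (0.0329), the block (0.0260), only the compared groups (0.0272), the Y-linked covariate (0.0398) and GC offsets (0.0288). Fgfr4 between the knockouts in lung missed with only the compared groups (0.0512), and Fgfr2 between the knockouts in cortex missed with no filter (0.125) or GC offsets (0.0594). In Cic-L-KO cerebellum Fgfr3 passed with GC offsets (-0.16, 0.0468). The Fgf9 interaction passed with a mean of at least 50 counts (0.0486). The cause was not tested. Of all genes, 817 passed in Cic-L-KO lung and 1285 with the block, or 517 without WT replicate 6 and 522 without WT replicate 5. In Cic-S-KO cortex 1108 passed, against 732 with no filter, 627 with the block, 654 with only the compared groups, 449 with GC offsets and as few as 461 without 1 library (Cic-S-KO replicate 6). In Cic-S-KO cerebellum 1370 passed, against 591 with the block, 883 without Cic-S-KO replicate 6 and 907 without replicate 7. The Cic-S-KO interaction held 812 genes, 446 with no filter and 462 without Cortex Cic-S-KO replicate 6.

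Groups share replicate numbers in their titles, and the labels do not say what a number marks. Same-numbered samples deviated together in part: in lung the mean correlation of deviations was 0.136 to 0.159 between groups, against about -0.02 for other numbers, but single pairs ranged from -0.053 to 0.347. At most 6 of 8 (WT with Cic-L-KO lung) or 6 of 7 (Cic-S-KO cortex with cerebellum) samples correlated best with their own number, which is a hint from the data and not from the design. Since not every pair was over 0.1, the replicate block is given as an alternative, and whether numbers mark litters or animals is unknown. With it, 4 FGF genes passed in Cic-S-KO lung and 3 in Cic-L-KO cerebellum. In both Cic-S-KO brain groups the library names skip number 2, so title numbers 2 to 7 are libraries 3 to 8. A replicate block by library number, chosen after seeing the data, gave 5 FGF genes in Cic-L-KO cortex, 4 in Cic-L-KO cerebellum, 0 in each Cic-S-KO brain region, 4 between the knockouts in cortex (Fgfr2 missed, adjusted p = 0.0825, edgeR) and 2 in cerebellum. Fgf7 in cortex, Fgfbp1 in brain and Fgf9 in lung rest on few counts, which limits the precision of their ratios.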
